A study of Homo sapiens with 8 samples.

Results

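The genes described here are 44 components of the human DNA replication machinery, from origin licensing to nucleotide supply. They were chosen by name, with earlier results of these data known. Each had to have a probe set that the platform annotation pairs with exactly 1 gene symbol. All 44 listed genes had one, of 19776 genes so named on the array. Where a gene had several such probe sets, the one with the highest mean log2 value over the 8 arrays was used. RNA came from A375, an established human melanoma cell line with an activating BRAF mutation. Every culture, controls included, received an siRNA: siCont is nontargeting, siBRAF is directed at BRAF and siATF4 at ATF4. siCont, siBRAF and siATF4 cells were kept in normal medium, and siCont and siBRAF cells also in glutamine-free medium for 18 h. Further siCont cells received DMSO for 4 h, and siCont and siATF4 cells received 10 uM vemurafenib, an inhibitor of mutant BRAF, for 4 h. Each of the 8 conditions has 1 array, so no difference has a replicate check, and no test was made.

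DNA replication starts when the origin recognition complex (ORC), CDC6 and CDT1 load the MCM helicase ring onto DNA in G1. At the G1/S border the CDC7-DBF4 kinase, CDC45, the GINS complex and MCM10 turn that ring into an active helicase. Polymerase alpha-primase then starts each strand, the RFC complex loads the PCNA clamp, and polymerases epsilon and delta extend the leading and lagging strands. Many of these genes are known targets of E2F transcription factors, which the RB protein holds back until cyclin-dependent kinases release them. In melanoma with mutant BRAF, ERK signalling is known to drive that release through cyclin D1.

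The arrays lie on 2 scales, with median intensities of 14.8 to 15.5 on 5 arrays (cells in normal or glutamine-free medium) and 36.4 to 36.9 on the other 3 (DMSO or vemurafenib). Differences were therefore taken only within each set of arrays. A difference here is always a log2 difference of log2(intensity + 1), and levels are linear RMA intensities. ATF4 itself read 1814 and 534 in siCont and siATF4 cells in normal medium, and 4548 and 757 in vemurafenib. No probe set is paired with BRAF alone in the annotation, so the siBRAF label was not checked on its target. Of 9 measured neural crest and melanoma markers, 6 reached the array median on every array (SOX10, PAX3, S100A1, S100B, MITF and TYR), while MLANA and TYRP1 stayed below it on all 8. The leukocyte marker PTPRC, the epithelial markers EPCAM and CDH1 and the endothelial marker CDH5 were below the median on every array. The keratin genes KRT5 and KRT14, CD3E and PECAM1 were above it. On the arrays of the medium set the summed level of the 5 epithelial markers ranged from 124 to 218, of the 4 leukocyte markers from 40.6 to 55.4 and of the 4 endothelial markers from 52.1 to 56.6. That of the 9 neural crest and melanoma markers ranged from 1079 to 3215. With siBRAF, in normal and glutamine-free medium, S100B was at 2.17 and 3.25, S100A1 at 1.46 and 1.7 and MITF at 1.15 and 0.44. The part of these markers in the results was not tested.

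The choice of members did not use their promoter sequences, and an E2F-type motif was more frequent in these than in all promoters. Many of these genes are known E2F targets, so this excess is not independent of that knowledge. Members' promoters and all promoters were not matched for base content. The RefSeq table (GRCh38.p14) held a 300-base promoter, from 250 bases before to 50 after the gene start, for 38 of the 44 members, and MCM4, MCM5, GINS4, POLD3, RPA2 and RPA3 have no entry in it. The motif (TTTCCCGC, TTTGGCGC, TTTCGCGC or TTTGCCGC, on either strand, overlaps with other motifs allowed) was found in 18 of the 38, or 47.4%, against 3.33% of 27305 promoters. Those 18 were ORC3, CDC6, CDT1, MCM2, MCM3, MCM6, MCM7, GINS1, GINS2, GINS3, PCNA, RFC3, POLA1, POLA2, POLE, POLE2, LIG1 and TYMS. A CCAAT box (CCAAT) was in 57.9% of the members' promoters against 35.7% of all, and a GC box (GGGCGG) in 71.1% against 44.6%. The CHR element (TTTGAA) was in 5.26%, those of DBF4 and RRM1, against 15.4%. A match is a run of letters and not a site shown to be bound. The promoters below are those of the 3 members with an E2F-type motif and the lowest mean difference over both siBRAF comparisons, then of the 2 members whose mean was nearest 0. Members with a promoter entry and a still lower mean had no such motif. They were RRM2 (-2.27), MCM10 (-2.25), RRM1 (-2.20), TK1 (-2.17), CDC45 (-2.08), PRIM1 (-2.04) and ORC6 (-1.93). The promoters shown are therefore not those of the members with the lowest means. Capitals mark the E2F-type motif, and where the motif lies on both strands in overlap the whole run is in capitals.
MCM6 (chr2:135876394-135876693, minus strand): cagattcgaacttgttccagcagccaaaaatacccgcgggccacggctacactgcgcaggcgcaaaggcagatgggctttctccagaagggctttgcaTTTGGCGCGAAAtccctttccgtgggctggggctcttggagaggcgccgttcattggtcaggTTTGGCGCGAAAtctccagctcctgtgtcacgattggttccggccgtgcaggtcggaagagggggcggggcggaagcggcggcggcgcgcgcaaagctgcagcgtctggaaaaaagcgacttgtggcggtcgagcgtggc
MCM7 (chr7:100101348-100101647, minus strand): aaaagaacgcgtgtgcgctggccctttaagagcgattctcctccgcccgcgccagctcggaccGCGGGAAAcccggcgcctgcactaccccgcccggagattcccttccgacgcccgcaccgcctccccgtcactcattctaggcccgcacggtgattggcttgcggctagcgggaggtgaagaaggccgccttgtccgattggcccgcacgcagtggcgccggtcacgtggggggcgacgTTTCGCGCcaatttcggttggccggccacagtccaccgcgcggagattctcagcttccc
RFC3 (chr13:33817899-33818198, plus strand): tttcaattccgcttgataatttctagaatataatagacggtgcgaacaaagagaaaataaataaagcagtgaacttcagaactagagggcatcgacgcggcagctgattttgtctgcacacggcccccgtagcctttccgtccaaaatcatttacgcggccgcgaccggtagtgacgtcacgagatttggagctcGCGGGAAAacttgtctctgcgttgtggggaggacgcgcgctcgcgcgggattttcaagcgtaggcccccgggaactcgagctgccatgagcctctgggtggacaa
RPA1 (chr17:1829755-1830054, plus strand): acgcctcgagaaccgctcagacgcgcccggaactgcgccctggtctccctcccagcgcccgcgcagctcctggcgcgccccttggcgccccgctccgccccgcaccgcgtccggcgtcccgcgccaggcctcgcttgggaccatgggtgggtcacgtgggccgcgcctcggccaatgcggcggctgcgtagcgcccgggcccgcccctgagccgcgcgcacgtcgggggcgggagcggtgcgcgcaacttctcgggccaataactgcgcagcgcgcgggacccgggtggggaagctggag
PCNA (chr20:5126573-5126872, minus strand): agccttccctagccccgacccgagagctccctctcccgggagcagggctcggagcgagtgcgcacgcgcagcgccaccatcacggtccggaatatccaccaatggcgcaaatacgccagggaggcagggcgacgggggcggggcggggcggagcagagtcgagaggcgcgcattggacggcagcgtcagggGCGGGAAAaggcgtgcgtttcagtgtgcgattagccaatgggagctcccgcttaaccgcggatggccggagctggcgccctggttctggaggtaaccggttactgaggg
The MCM6 promoter holds 4 matches in 2 runs, that of MCM7 holds 2, and those of RFC3 and PCNA hold 1 each. The RPA1 promoter holds none of the 4 words. PCNA thus has the motif although its mean difference with siBRAF was near 0. For both PCNA and RPA1 a mean near 0 came from opposite values in the 2 media, given below.

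BRAF knockdown in normal medium went with lower levels of nearly all replication genes. Of the 44 members, all of which passed the filter on low values, 35 were at least 2-fold lower and 0 were at least 2-fold higher. The background among 13346 genes was 7.61% lower and 7.16% higher by that measure, 14.8% in either direction. The median over members was -1.68, a 3.20-fold lower level, against -0.0059 over all genes. 17 members were at least 4-fold lower. The 5th percentile of all genes was -1.26, and their share past 4-fold was not counted. Arrays of a culture measure its mean, so fewer cells in S phase and less transcript per cell cannot be told apart.

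**Figure D1:**
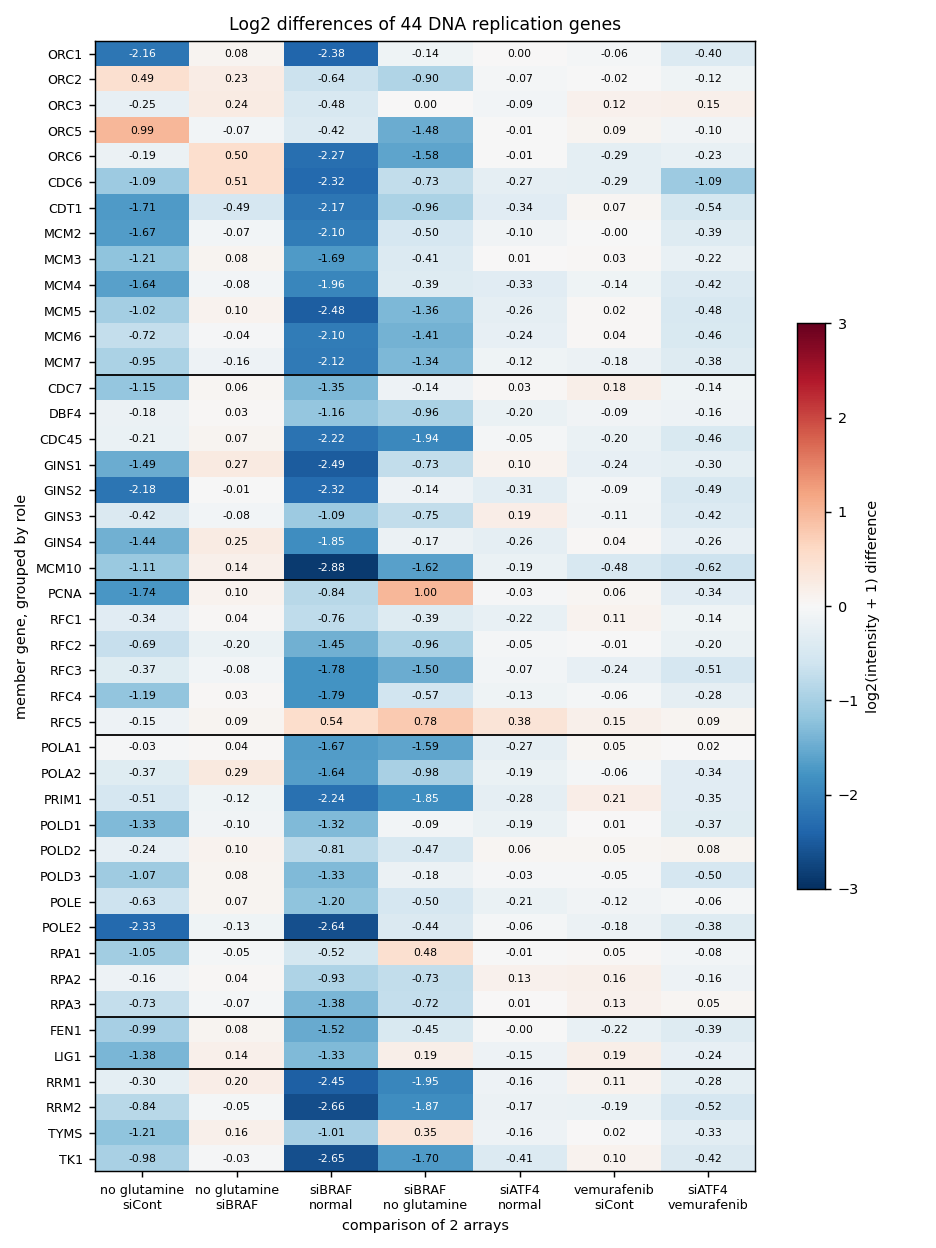
Log2(intensity + 1) differences of the 44 genes (rows, grouped by role, black lines between groups) in the 7 comparisons (columns), each between 2 arrays. Blue is lower and red higher in the first-named condition. The siBRAF column in normal medium is blue in all rows but RFC5. The columns for glutamine withdrawal in siBRAF cells, for vemurafenib and for siATF4 in normal medium are pale.

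Of 13 licensing genes, 10 were lower by 2-fold or more with siBRAF in normal medium, and all 13 were below 0, with a median of -2.10. MCM5, a subunit of the helicase ring, had the lowest value of the group: it read 293 with siCont and 244 with siATF4 in normal medium, 144 with siCont without glutamine, and 51.6 and 55.5 with siBRAF in normal and glutamine-free medium. Both siBRAF arrays were far below the other 3. The difference in normal medium was -2.48, and the other MCM subunits lay between -2.12 (MCM7) and -1.69 (MCM3), with MCM2 and MCM6 both at -2.10 and MCM4 at -1.96. The loading factors CDC6 and CDT1 stood at -2.32 and -2.17. ORC was split. ORC1, the subunit whose level cycles in many cells, was at -2.38 and ORC6 at -2.27, while ORC2 was at -0.64, ORC3 at -0.48 and ORC5 at -0.42, the last 2 being the smallest differences of all 44. ORC5 read 249 with siCont and 186 with siBRAF, and ORC3 read 180 and 129.

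All 8 genes of origin firing and helicase activation were at least 2-fold lower, with a median of -2.04. MCM10, which helps activate the helicase, had the lowest value of all 44 members at -2.88, or 7.35-fold. It read 234 with siCont, 204 with siATF4 and 30.9 with siBRAF in normal medium, and 108 and 34.2 with siCont and siBRAF without glutamine. GINS1, one of the 4 GINS subunits, read 488 with siCont, 525 with siATF4 and 85.9 with siBRAF in normal medium, a difference of -2.49. GINS2 was at -2.32, CDC45 at -2.22, GINS4 at -1.85, the kinase CDC7 at -1.35, its activator DBF4 at -1.16 and GINS3 at -1.09. The subunits of a single complex thus differed in size, from -2.49 to -1.09 within GINS.

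The clamp and its loader had smaller differences as a group, with 3 of 6 at least 2-fold lower and a median of -1.14. RFC4 was at -1.79, RFC3 at -1.78, RFC2 at -1.45, the large subunit RFC1 at -0.76 and PCNA at -0.84. RFC4 read 354 with siCont and 102 with siBRAF. RFC5 was the only member with a higher value, 510 against 351, a difference of 0.54. That sign rests on the choice of probe set, since its other 2 probe sets were at -1.19 and -1.32.

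Among the 8 polymerase and primase genes 7 were at least 2-fold lower, with a median of -1.49. POLE2, the second subunit of polymerase epsilon, read 165 with siCont, 159 with siATF4 and 25.7 with siBRAF in normal medium, a difference of -2.64. Its catalytic partner POLE was at -1.20, from 81.1 to 34.8. The primase subunit PRIM1 was at -2.24, and POLA1 and POLA2 of polymerase alpha were at -1.67 and -1.64. POLD3 and the catalytic POLD1 of polymerase delta were at -1.33 and -1.32, and POLD2 at -0.81. The single-strand binding proteins were at -1.38 (RPA3), -0.93 (RPA2) and -0.52 (RPA1), with RPA3 at 1186 with siCont and 454 with siBRAF. FEN1, the flap nuclease of Okazaki fragments, was at -1.52, from 1032 to 359, and the ligase LIG1 at -1.33.

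Nucleotide supply genes were all at least 2-fold lower, with a median of -2.55 over 4 genes. RRM2, the small subunit of ribonucleotide reductase, read 2292 with siCont, 2044 with siATF4 and 362 with siBRAF in normal medium, a difference of -2.66. Thymidine kinase TK1 read 503, 380 and 79.6 on the same 3 arrays, a difference of -2.65. RRM1 was at -2.45. Thymidylate synthase TYMS lay just past 2-fold at -1.01, and it was within 2-fold with log2(intensity + 16) at -0.999 and under quantile normalization at -0.95.

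**Figure D2:**
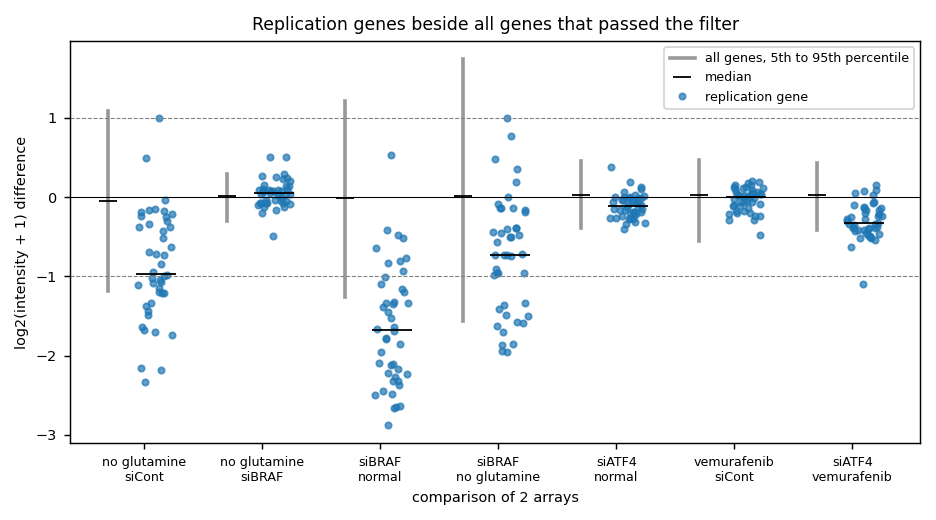
Log2 differences of the 44 genes (blue points, sideways spread only to separate them) in the 7 comparisons, beside the 5th to 95th percentile of all genes that passed the filter (grey bars); black ticks are medians and dashed lines mark 2-fold. The member medians are -0.97 without glutamine and -1.68 with siBRAF in normal medium, and 0.0028 with vemurafenib.

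Without glutamine, the differences between siBRAF and siCont cells ran from well below 0 to above it. Of 44 members 13 were at least 2-fold lower and 1, PCNA, was at least 2-fold higher, with 10.8% and 12.8% of 13496 genes in those directions, or 23.7% in either. The median over members was -0.73, against 0.020 over all genes. The 5 lowest were RRM1 (-1.95), CDC45 (-1.94), RRM2 (-1.87), PRIM1 (-1.85) and TK1 (-1.70). RRM1 read 1131 with siCont and 292 with siBRAF without glutamine, close to its 1391 and 253 in normal medium. CDC45 read 99.1 and 25.1 without glutamine, and 115 and 23.8 in normal medium. For RRM1 and CDC45 the siCont arrays of both media were high and the siBRAF arrays of both media were low. MCM10 (-1.62), POLA1 (-1.59), ORC6 (-1.58), RFC3 (-1.50), ORC5 (-1.48), MCM6 (-1.41), MCM5 (-1.36) and MCM7 (-1.34) completed the 13.

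The members nearest 0 in this comparison were ORC3 and POLD1. ORC3 was at 0.0015, with 152 on each array, between its 180 with siCont and 129 with siBRAF in normal medium. POLD1 was at -0.09, with 84.2 with siCont and 78.9 with siBRAF, both below its 213 with siCont in normal medium. ORC1, GINS2 and CDC7 were each at -0.14, GINS4 at -0.17 and POLD3 at -0.18. The second probe set of POLD3 was at -1.84, so its place here depends on the probe set. POLE2 was at -0.44, MCM2 at -0.50, MCM3 at -0.41 and MCM4 at -0.39. The helicase ring was therefore not even: MCM5, MCM6 and MCM7 were past 2-fold while MCM2, MCM3 and MCM4 were not, a difference between subunits that was not tested.

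The 2 siBRAF comparisons share no array. Of the 44 members, 12 were at least 2-fold lower in both, or 27.3%, against 4.3% of 13131 genes: ORC6, MCM5, MCM6, MCM7, CDC45, MCM10, RFC3, POLA1, PRIM1, RRM1, RRM2 and TK1. These 12 are 34.3% of the members called in normal medium and 92.3% of those at least 2-fold lower without glutamine. The 1 left over is ORC5. Across the 44 genes, which are not independent of one another, the correlation of the 2 comparisons was 0.58, and 0.72 across all genes. PCNA (-0.84 and 1.0), TYMS (-1.01 and 0.35), RPA1 (-0.52 and 0.48) and LIG1 (-1.33 and 0.19) were lower with siBRAF in normal medium and higher without glutamine. PCNA lay at 2-fold and was just within it with log2(intensity + 16), at 0.98.

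**Figure D3:**
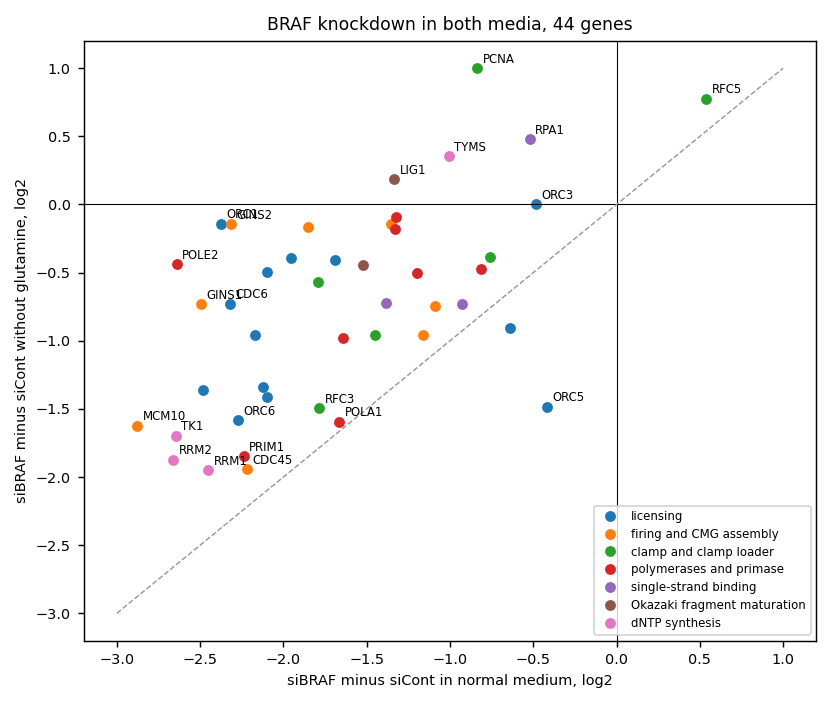
Each of the 44 genes by its siBRAF difference in normal medium (x axis, log2) and without glutamine (y axis, log2), coloured by role; the dashed line marks equal values. Points above the line have a less negative difference without glutamine, and 12 genes are at or below -1 on both axes.

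Glutamine withdrawal in siCont cells went with lower levels of a part of the machinery. 20 of 44 members were at least 2-fold lower and 0 higher, where 7.22% of 13355 genes were lower and 5.76% higher, or 13% in either direction. The median over members was -0.97 and over all genes -0.045, and 42 of the 44 differences were below 0, against 53.8% of all genes. This comparison shares the siCont array in normal medium with the siBRAF comparison above. The lowest were POLE2 (-2.33), GINS2 (-2.18) and ORC1 (-2.16), the 3 members more than 4-fold lower, followed by PCNA (-1.74) and CDT1 (-1.71). The 5th percentile of all genes was -1.19, and their share past 4-fold was not counted. POLE2 read 165 with glutamine and 32.0 without it, where the siBRAF array read 23.4. GINS2 read 291 and 63.2 on its brightest probe set, while its second, dimmer one was at -0.23. ORC1 read 144 and 31.4. On these 3 genes the siCont array without glutamine lay near both siBRAF arrays.

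PCNA and CDT1 took different orders. CDT1 read 291 in normal medium and 88.7 without glutamine with siCont, and 63.9 and 45.1 with siBRAF, so siBRAF was lower in each medium. PCNA read 1895 and 568 with siCont, and 1060 and 1138 with siBRAF, so its lowest array was siCont without glutamine. RPA1 (723), TYMS (1144), LIG1 (63.8) and, on the probe set used, RFC5 (316) were also lowest on that array. LIG1 was nearly as low with siBRAF in normal medium, at 65.6. On the second probe set of TYMS the same arrays were nearly equal, at 404 and 409. In 37 of the 44 members the 2 siBRAF arrays were the lowest pair of the 5. That order was not counted over all genes, and the siBRAF arrays were close to each other in general, with an SD of 0.19 over all genes.

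Other members had differences near 0 with glutamine withdrawal. POLA1 read 209 with glutamine and 204 without, a difference of -0.03, and RFC5 read 351 and 316, at -0.15. RPA2 (-0.16), DBF4 (-0.18), ORC6 (-0.19), CDC45 (-0.21), POLD2 (-0.24), ORC3 (-0.25) and RRM1 (-0.30) lay close to them, and 14 members lay within 0.5 of 0. ORC5 was higher, 497 against 249, at 0.99, just within 2-fold. Its other 2 probe sets were at 1.28 and 1.37. ORC2 was at 0.49 on its brightest probe set and at -0.93 on its second, so its direction depends on the probe set.

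By role, the groups were each mixed. Licensing had 7 of 13 at least 2-fold lower: ORC1, CDT1, MCM2 (-1.67), MCM4 (-1.64), MCM3 (-1.21), CDC6 (-1.09) and MCM5 (-1.02), with MCM7 at -0.95 and MCM6 at -0.72. Firing had 5 of 8: GINS2, GINS1 (-1.49), GINS4 (-1.44), CDC7 (-1.15) and MCM10 (-1.11), with GINS3 at -0.42. The clamp group had 2 of 6, PCNA and RFC4 (-1.19), and the polymerases 3 of 8, POLE2, POLD1 (-1.33) and POLD3 (-1.07). LIG1 was at -1.38 and FEN1 at -0.99, TYMS at -1.21, TK1 at -0.98 and RRM2 at -0.84. RPA1 was at -1.05 and RPA3 at -0.73. POLE was at -0.63, PRIM1 at -0.51, RFC2 at -0.69, RFC3 and POLA2 both at -0.37 and RFC1 at -0.34. The actin control probes, which read the integrity of the RNA, differed by 0.28 between the 3' and 5' ends on the siCont glutamine-free array, and by 0.16 to 0.20 on the other 4 of that set, and the part of this in the result was not tested.

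**Figure D4:**
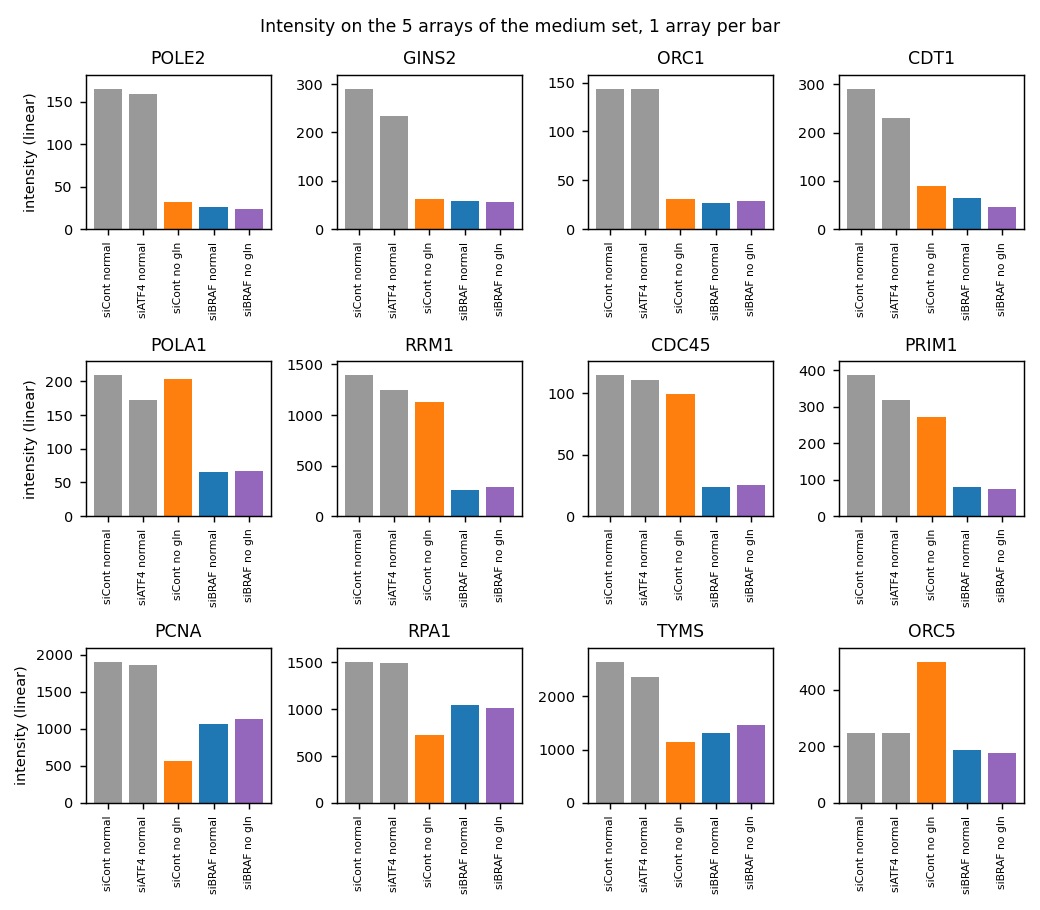
Linear intensity of 12 members on the 5 arrays of the medium set, 1 array per bar, each panel with its own axis from 0. In the top row the siCont array without glutamine (orange) is near the siBRAF arrays, in the middle row it is near the control arrays, and in the bottom row it is the lowest of the 5 for PCNA, RPA1 and TYMS and the highest for ORC5.

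Glutamine withdrawal in siBRAF cells left all 44 members within 2-fold, and 0.122% of 13138 genes were 2-fold apart (0.0761% lower, 0.0457% higher). The member median was 0.050, the median of all genes 0.014, and the SD of the differences was 0.17 over members and 0.19 over all genes. The 2 largest differences were those of CDC6, from 52.1 to 74.4 (0.51), and ORC6, from 60.0 to 85.4 (0.50), and the lowest was CDT1 (-0.49). The glutamine response was more positive in siBRAF than in siCont cells for 42 members, against 55.1% of 12780 genes, and by at least 1 for 21 of them, against 7.73% of those genes. It was more negative by at least 1 for ORC5 alone among members (-1.07), against 5.44% of genes. The median of this difference was 0.87 over members and 0.062 over all genes, and ORC1 (2.24), POLE2 (2.20) and GINS2 (2.17) had the highest values. On the siBRAF arrays ORC1 (26.9 and 28.4) and POLE2 (25.7 and 23.4) were already low, where the array medians were 15.5 and 15.3. The part of such low levels in these values was not tested. The second probe set of GINS2 responded alike, at -0.23 in siCont and -0.18 in siBRAF cells. The difference between responses rests on 4 arrays and was not tested.

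Vemurafenib for 4 h left all members within 2-fold of DMSO, where 2.78% of 13160 genes were 2-fold apart (1.92% lower, 0.859% higher). The member median was 0.0028 against 0.025 over all genes, and 22 members were below and 22 above 0. The largest differences were MCM10 at -0.48, with 660 in DMSO and 473 in vemurafenib, and CDC6 at -0.29, with 649 and 531. ORC6 was also at -0.29. The drug acted for 4 h and the time after siRNA transfection is not given in the sources used here, so these values and those of siBRAF are not matched in time. Some G1/S genes were lower in the same pair: cyclin D1 (CCND1) at -2.18, the phosphatase CDC25A at -1.16 and CCNE2 at -0.99, while CDKN1B, an inhibitor of cyclin-dependent kinases, was at 0.71.

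ATF4 knockdown went with small differences in the replication genes, all within 2-fold but 1. In normal medium the member median was -0.11 against 0.029 over all genes, with 35 of 44 below 0 against 44.5% of all genes, and 0 members were 2-fold apart, against 0.858% of 13170 genes (0.387% lower, 0.471% higher). The 2 largest were TK1, 503 with siCont and 380 with siATF4 (-0.41), and RFC5, 351 and 457 (0.38). RFC5 again depended on the probe set, with the other 2 at -0.06 and -0.21. In vemurafenib 39 of 44 were below 0, against 43.5% of 13173 genes, and the median was -0.33 against 0.032. Other lists lay below 0 in the same pair: 28 of 28 mitotic genes, with a median of -0.45, and 30 of 31 other fork and licensing factors, with a median of -0.25. CDC6 alone was at least 2-fold lower, against 0.729% of genes (0.205% were higher and 0.934% apart in either direction), with 531 with siCont and 248 with siATF4 (-1.09). MCM10 read 473 and 306 (-0.62), CDT1 was at -0.54, RRM2 at -0.52, RFC3 at -0.51, POLD3 at -0.50 and GINS2 at -0.49. The second probe set of CDC6 was at -0.93, so its 2-fold call rests on the one used. RPA1 (-0.08), POLE (-0.06), POLA1 (0.02), RPA3 (0.05), POLD2 (0.08), RFC5 (0.09) and ORC3 (0.15) were nearest 0 or above it. The 2 siATF4 comparisons share no array, and 33 members were below 0 in both, or 75%, against 26.4% of 12589 genes, with a correlation of 0.41 across members and 0.42 across all genes.

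Genes around the replication machinery are given beside these values. Their lists, like the members, were chosen with earlier results of these data known, so they are not an independent reference. Of 31 other fork and licensing factors, 19 were at least 2-fold lower with siBRAF in normal medium and 0 higher (median -1.26), led by the histone chaperone ASF1B (-2.38), UHRF1 (-2.28) and the fork protein WDHD1 (-2.01). Without glutamine in siCont cells 6 of the 31 were at least 2-fold lower (median -0.54): GMNN (-1.92), PCLAF (-1.83), ASF1B (-1.75), DNA2 (-1.48), CLSPN (-1.20) and ATAD5 (-1.04). GMNN, the geminin gene whose product binds CDT1 and blocks licensing, read 614 and 161 in siCont cells and 261 and 254 in siBRAF cells in normal and glutamine-free medium, lowest on the same array as PCNA. All 28 mitotic genes were lower by 2-fold or more with siBRAF in normal medium (median -2.67, NUF2 at -3.54, BUB1 at -3.38, BUB1B at -3.11) and 23 without glutamine (median -1.82). Glutamine withdrawal in siCont cells put 12 of the 28 at least 2-fold lower (median -0.83), led by KIF20A (-3.11), CCNB1 (-1.84) and CCNB2 (-1.54).

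Regulators of the G1/S step were mixed. Of 17 E2F, RB and DREAM genes that passed the filter, 4 were at least 2-fold lower with siBRAF in normal medium (median -0.38): MYBL2 (-1.68), RBL1 (-1.55), LIN9 (-1.49) and E2F8 (-1.46). E2F1 was at -0.87 there and at -0.40 without glutamine in siCont cells. E2F7, a repressor of the family, was at 1.36 and E2F8, another, at -2.10 with glutamine withdrawal, and TFDP1 at -1.04. Cyclin E2 (CCNE2) read 233 with siCont in normal medium, 24.4 with siCont without glutamine, and 46.4 and 51.8 with siBRAF in the 2 media. Its lowest array was thus that of PCNA, TYMS and GMNN. The inhibitor CDKN1A was at 2.60 with siBRAF in normal medium and at 0.98 with glutamine withdrawal, and CCNA2 at -2.73 and -1.33. CCND3 was at -1.18 without glutamine in siCont cells.

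Polymerases outside the replication fork were on both sides of 0. Of 10 translesion and repair polymerases 1 was at least 2-fold lower with siBRAF in normal medium, POLQ (-1.34), and 1 at least 2-fold higher, POLK (1.84). The median was -0.11, 5 of the 10 were below 0, and PRIMPOL was at -0.77. POLH was at -1.30 with glutamine withdrawal, with POLK at 0.73 and REV1 at -0.72. Of 9 mitochondrial replication genes 0 were 2-fold apart with siBRAF in normal medium or with glutamine withdrawal in siCont cells, with medians of -0.57 and 0.044. TFAM (-0.90), LIG3 (-0.88) and TWNK (-0.63) were largest with siBRAF in normal medium, and POLRMT (-0.83), TWNK (0.78) and TFAM (0.68) with glutamine withdrawal. With siBRAF without glutamine 2 of the 9 were at least 2-fold lower, TWNK (-1.51) and TFAM (-1.41), and 0 were higher (median -0.45). TFAM was at -1.25 with siATF4 in vemurafenib. No list was tested against another.

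Within the replication genes, those with an E2F-type promoter motif had a median of -1.74 with siBRAF in normal medium (18 genes, -2.64 to -0.48) and those without it -1.49 (20 genes, -2.88 to 0.54). With glutamine withdrawal in siCont cells the medians were -1.15 and -0.60, and with siBRAF without glutamine -0.61 and -0.93. The ranges overlapped in each case, and the differences between these medians were not tested.

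Several members had more than 1 probe set, which gives a check of the probes but not of the cultures. For 23 members with 54 probe sets above the array median on some array of the medium set, all probe sets fell on the same side of 2-fold for 18 with siBRAF in normal medium and for 13 with glutamine withdrawal in siCont cells. The median gap between probe sets of a gene was 0.47 and 0.37. MCM10 was at -2.88, -2.70 and -2.32 with siBRAF, and TK1, RRM1, RRM2 and FEN1 differed by at most 0.26 between theirs in that comparison. GINS2 had the largest gap with siBRAF in normal medium and with glutamine withdrawal. Its brightest probe set read 291 and 57.5 with siCont and siBRAF in normal medium, and a second one read 29.9 and 33.0. Its remaining probe set, below the array median, was at -0.06. MCM4 had 4 probe sets from -2.45 to -1.96 and another, dim one at -0.06. POLD3 was at -1.07 and 0.07 with glutamine withdrawal, and at -1.33 and -1.41 with siBRAF in normal medium. RFC5 was at -0.15, -0.81 and -1.09 with glutamine withdrawal. With siBRAF without glutamine, all probe sets fell on the same side of 2-fold for 19 of the 23 members. ORC2 had the largest gap there, at -0.90 and 1.19, and POLD3 was at -0.18 and -1.84.

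**Figure D5:**
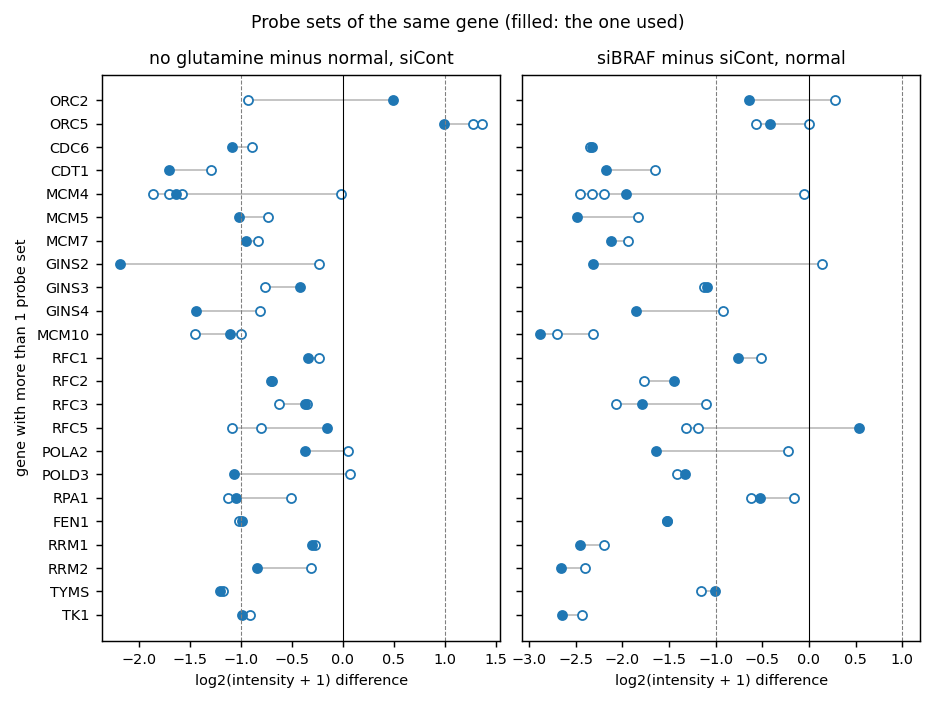
Log2 differences of each probe set (points) of the 23 genes with more than 1 probe set above the array median, for glutamine withdrawal in siCont cells (left) and siBRAF in normal medium (right); filled points are the probe sets used and dashed lines mark 2-fold. On the right GINS2, MCM4, RFC5 and POLA2 have the widest gaps.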

How the data were processed

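RNA from 8 A375 cultures was measured on Affymetrix arrays from 5 ug of total RNA each, per the labels' protocols. The deposited intensities are linear. RMA, whose steps include background correction and a summary of probes, is the method that the submitters' processing notes name. Its version and settings, including any normalization between arrays, are not given in the sources used here. Within the medium set the 75th percentile of intensity ran from 75.54 (siCont, glutamine-free) to 80.05 (siATF4, normal medium). A dim probe set reads mostly background. The table holds 54675 probe sets, 62 of them controls. The platform annotation pairs 41098 with 1 symbol, 1800 with several and 11715 with none.

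From these values log2(intensity + 1) was taken with pandas 2.3.3 and numpy 2.4.6 in Python 3.11.15, with no further normalization. Fold changes on that scale come out too small for low genes. To be compared, a gene needed its larger value at or above the 50th percentile of its array's probe sets, and it was called at 2-fold. With 1 array per condition the precision is limited by their number, there is no replicate error, and no test was made. An additive model over the 8 arrays was left out because its residual would be the departure from additivity, which is large for these genes. The script that makes the calls was checked on simulated data. The members and lists were chosen with earlier results of these data known. Genes named with their array values are, per comparison, the 5 largest and 2 smallest differences, or the 2 largest where fewer than 5 members were called, plus the lowest of each role group. The 3 largest of each context list are named for siBRAF in normal medium and for glutamine withdrawal, with CCNE2, E2F1, GMNN and CDKN1A. Other members and context genes are named to account for a group or a count and were chosen after their values were seen. Some listed context and marker genes were not analysed here. The alternatives were another added constant (16), the 75th percentile or no filter, the mean of all probe sets, probe sets without the suffixes _s_at and _x_at, and quantile normalization within sets.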

Additional observations from a re-analysis of the deposited data

Results flagged for a closer look

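6 differences had opposite signs in 2 backgrounds, each larger than 0.19, the SD of all differences between the siBRAF arrays, and at least 1 apart on the log2 scale. The rule was applied to the members only, and the share of all genes that meet it was not counted. Each rests on 4 arrays, and the difference was not tested. With siBRAF, PCNA was at -0.84 in normal and 1.0 in glutamine-free medium, 1.84 apart. TYMS was at -1.01 and 0.35, 1.36 apart, and RPA1 at -0.52 and 0.48, 1.0 apart. The second probe set of TYMS was at -1.15 and 0.10, the last smaller than 0.19, so this flag rests on the probe set used. With glutamine withdrawal, CDC6 was at -1.09 in siCont and 0.51 in siBRAF cells, 1.59 apart. GINS1 was at -1.49 and 0.27, 1.76 apart, and GINS4 at -1.44 and 0.25, 1.69 apart. Both sets of differences use the same 4 arrays.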

How the results depend on the processing

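No paired analysis was possible because each condition has 1 array. For the same reason no array could be left out of a comparison. Over 6 alternatives a count of members 2-fold apart was taken as unchanged if it stayed within a set ratio of the main count. Counts taken as unchanged could thus still differ. A member median of the 7 comparisons was taken as unchanged if it moved by less than 0.19. The exceptions were these. The median with siBRAF in normal medium was -1.48 with log2(intensity + 16), against -1.68. The median with glutamine withdrawal in siCont cells was -0.72 with the mean of all probe sets, against -0.97. Without _s_at and _x_at probe sets, which left 33 members, the median with siBRAF without glutamine was -0.47, against -0.73, and 0 members were 2-fold apart with siATF4 in vemurafenib, against 1 (CDC6). GINS2 with siBRAF in normal medium turned from -2.32 to 0.14 on that setting, where a dim probe set stands for it. Of 70 single differences past 2-fold, 7 were within it with log2(intensity + 16), 11 with the mean of all probe sets, 1 under quantile normalization and 0 with either filter, and 6 of 55 without _s_at and _x_at probe sets. The smallest signals, near the array median, limit the second probe sets of GINS2, POLA2 and MCM4.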

Other observations

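Replication genes differed in which array was highest in the medium set: 33 of the 44 were highest with siCont in normal medium, 8 with siATF4, 2 (ORC2 and ORC5) with siCont without glutamine, and 1 (RFC5, on the probe set used) with siBRAF without glutamine. The highest array was not counted over all genes. Of 18 members with an E2F-type motif, ORC3 had the smallest siBRAF difference in normal medium, at -0.48. Among the polymerases, POLH was lowest on the siCont glutamine-free array, at 23.1, and read 58.3, 63.8, 69.9 and 73.7 on the other 4 arrays of the set.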
